A study of Mus musculus with 6 samples.

Results

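Antigen receptor signalling in B cell precursors was followed through 10 transcripts grouped as encoding cytosolic proteins downstream of the pre-B cell receptor. They were taken by gene symbol from the deposited table of 54752 genes, and all 10 were found. By role they are the exchange factors Vav1 and Ralgps2, the adaptors Blnk and Grb2, the tyrosine kinases Syk, Lyn, Blk and Btk, and the lipid-directed enzymes Pik3cd and Plcg2. Whether Ralgps2 acts downstream of this receptor was not tested. Vav1 and Ralgps2 were included because their IP/input ratios in tet-LIN28B mice were already known to be high. The ratios of all 10 are therefore given as a description, and counts of calls among them stand only beside the share of all genes called.

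When the pre-B cell receptor is engaged, Src family kinases such as LYN and BLK phosphorylate its CD79 chains, which recruit the kinase SYK. SYK phosphorylates the adaptor BLNK, and BLNK brings BTK, PLCγ2, VAV1 and GRB2 together at the membrane. The outputs are calcium release, activation of RAC and RAS GTPases, and production of PIP3 by PI3Kδ, the product of Pik3cd. LIN28B, an RNA-binding protein of fetal and neonatal cells, binds mRNAs as well as let-7 precursors, and RNA immunoprecipitation (RIP) captures the transcripts that come down with it.

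The study compared what an anti-FLAG antibody recovered (IP) with the lysate it was taken from (input). The groups were IP and input of 2 tet-LIN28B mice, which carry FLAG-tagged human LIN28B at Col1a under a Dox-inducible promoter (Col1a tetO-LIN28B, 1 allele) and Rosa26 rtTA, and IP and input of 1 littermate control with Rosa26 rtTA alone. All 3 were adult mice whose non-adherent bone marrow cells were expanded for 5 days in IL-7 (20 ng/mL) with Dox from the start (0.1 mg/mL in the sample labels, given in µg in the methods). The transgene is driven by Dox and not by a B cell promoter, so any cell in the culture could express it, and a single control mouse shows the background of the beads.

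All 8 B lineage markers were above 1 FPKM (fragments scaled by transcript length and library size) in every input. Their sum was 9358 and 9342 FPKM in the tet-LIN28B IPs and 5638 FPKM in the control IP, while the inputs held 5994 and 6979 FPKM for tet-LIN28B and 6608 FPKM for the control. The 8 myeloid markers were above 1 FPKM in every input as well. They summed to 2528 and 1670 FPKM in the tet-LIN28B IPs and 2778 FPKM in the control IP, with 7431, 4647 and 6399 FPKM in the inputs of these 3 mice, and 0 of 3 stromal markers reached 1 FPKM. In the same order of mice, input sums were 77.0, 27.1 and 29.6 FPKM for 6 T and NK cell markers, 39.5, 24.8 and 12.4 for 4 erythroid, 884, 491 and 496 for 3 megakaryocyte, 65.2, 55.6 and 55.7 for 4 mast cell and basophil, and 14.7, 9.90 and 6.58 for 2 plasmacytoid dendritic markers. Sums over different marker lists do not give cell fractions, and the paper reports that most cells in these cultures were B cells after IL-7 expansion. Several of the 10 signalling genes are also used by myeloid cells, and the part of such cells in the values below was not tested. From the steps between low FPKM values, the libraries held about 14150000 to 21000000 fragments, and the members about 302 (Plcg2, IP of the first tet-LIN28B mouse) to 33690 fragments (Ralgps2, IP of the other tet-LIN28B mouse). Counting error alone, with fragments taken as independent, was 0.545% to 5.75%.

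GGAG is the sequence that the zinc knuckles of LIN28 proteins contact in let-7 precursors, so the mRNAs were read for GGAG and for the longer GGAGA on the sense strand (GENCODE M21, the coding transcript with the longest coding sequence; every GGAGA also holds a GGAG). Windows are shown for both exchange factors, which had the highest ratios, and for Plcg2 and Blk, which had the lowest. Each shows the first GGAGA of the coding sequence in capitals, with 12 bases on either side, 5′ to 3′.
Vav1: ctgctgcctgcgGGAGAtccagcagacgg
Ralgps2: aacagagtgcgaGGAGAgccgacaccaaa
Plcg2: acagatgatcatGGAGActcggcaggtgg
Blk: ttgaggagcactGGAGActggtggttggc
The Vav1 window lies in exon 6 on the plus strand of GRCm38 at chr17:57297275-57297303. The coding sequence of Ralgps2 held 0 GGAGA, so its window is the first of the whole mRNA, in the 3′ UTR within exon 20 on the minus strand at chr1:156808887-156808915. The Plcg2 window lies in exon 2 on the plus strand at chr8:117504309-117504337, and that of Blk crosses from exon 4 to exon 5 on the minus strand between chr14:63384007 and 63384846.

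Among the 10, the density of these letters did not follow the order of the ratios. Vav1 held 10 GGAGA in 2963 bases, or 3.38 per 1000 bases, a density reached by 13.6% of the genes with a coding model. Ralgps2 held 3 in 3346 bases, or 0.897 per 1000, and 85.5% of genes were at least as dense. Plcg2, with the lowest ratio of the 10, was the densest, with 19 in 4298 bases (4.42 per 1000, reached by 4.81% of genes). For GGAG, the densities were 11.8 per 1000 in Vav1, 6.87 in Ralgps2, 12.6 in Plcg2 and 2.86 in Blnk, the sparsest. Over 5653 genes, 99.7% of mRNAs held a GGAG and 94.8% a GGAGA, with medians of 6.93 and 1.94 per 1000 bases. Across these genes, the density of GGAGA and the tet-LIN28B log2 IP/input ratio had Pearson r = 0.0743 and Spearman rho = 0.0700, as a description of genes that share their libraries. A match is a description of the letters and not a binding site.

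Vav1 and Ralgps2 stood out in the tet-LIN28B IPs, while the kinases and lipid enzymes did not. Vav1, the exchange factor that loads RAC GTPases after receptor engagement (chromosome 17 of GRCm38, 57279100 to 57328031), measured 491 and 350.5 FPKM in the tet-LIN28B IPs, against 74.8 and 70.5 FPKM in the inputs of the same mice. In the control it was at 75.0 FPKM in the IP and 64.7 FPKM in the input. Both tet-LIN28B IPs lay far above the other 4 libraries, which overlapped closely. Its IP/input ratio was 5.77 ± 1.13 in tet-LIN28B mice (SD, n = 2; 6.57 and 4.97) and 1.16 in the control, a log2 difference of 2.29 with 1 FPKM added to each value.

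Ralgps2 encodes an exchange factor for RAL GTPases (chromosome 1, 156804166 to 156939626). It measured 673 and 615 FPKM in the tet-LIN28B IPs and 136 and 123 FPKM in their inputs, with nearly the same ratio in both mice, 4.97 ± 0.0547 (SD, n = 2; 4.93 and 5.01). In the control it measured 302 FPKM in the IP and 153 FPKM in the input, a ratio of 1.97, further above 1 than the 1.16 of Vav1. That control ratio exceeded those of 96.1% of the 6347 genes whose inputs averaged at least 10 FPKM, whereas the control ratio of Vav1 exceeded 68.6%. The ratio of Ralgps2 in tet-LIN28B mice was thus 2.53 times that of the control, and that of Vav1 4.98 times.

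**Figure D1:**
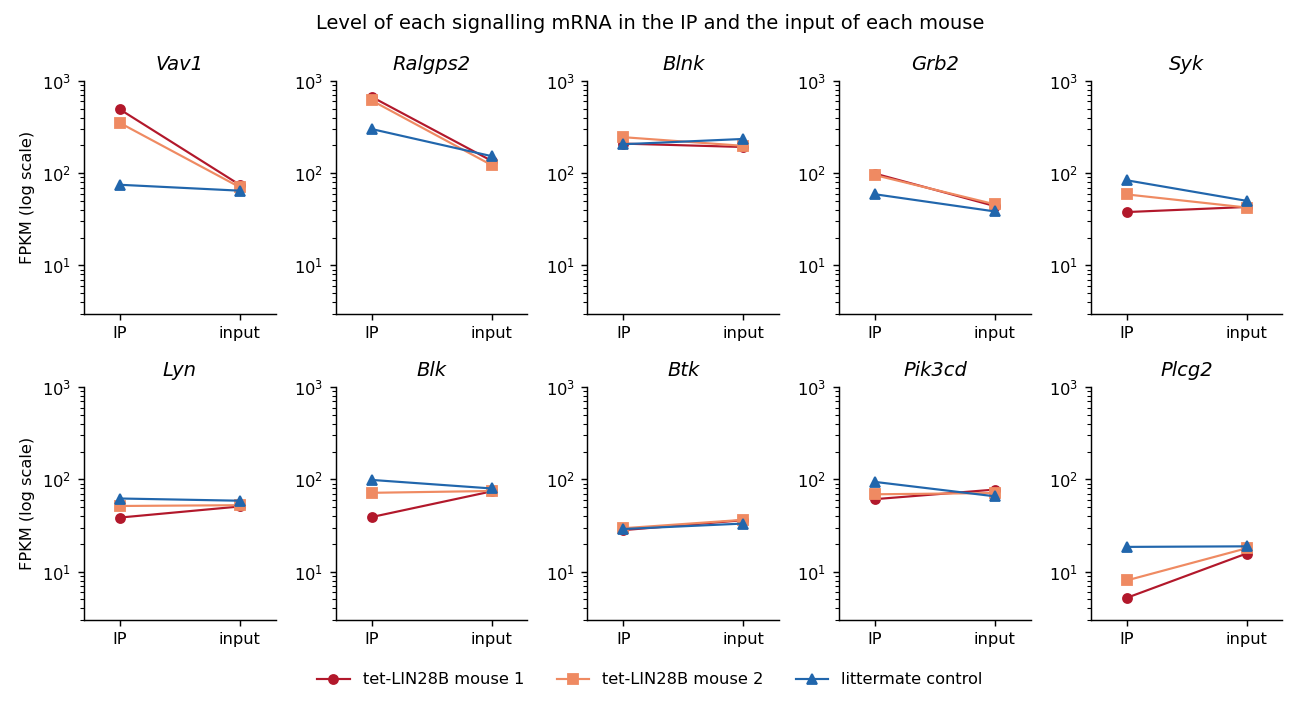
FPKM (log axis) of each of the 10 transcripts in the IP and the input, with 1 line per mouse. Vav1 falls from 491 and 350.5 FPKM in the tet-LIN28B IPs to the level of the other libraries in the inputs, whereas Btk is nearly level in all 3 mice and Plcg2 has less in the tet-LIN28B IPs than in their inputs.

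The adaptors took a middle position. Grb2, which links receptors to the RAS exchange factor SOS (chromosome 11, 115644045 to 115708597), measured 99.1 and 95.4 FPKM in the tet-LIN28B IPs and 44.0 and 46.0 FPKM in their inputs. Its ratio was 2.16 ± 0.127 (SD, n = 2; 2.25 and 2.07), and 1.54 in the control (59.1 FPKM in the IP, 38.5 FPKM in the input). Grb2 was thus, with Vav1 and Ralgps2, 1 of 3 members with an average ratio above 2, beside 9.99% of all genes, but its inputs lay under the 50 FPKM that the study asked of the tet-LIN28B libraries. The models Gm12791 and Gm13542 shared 8.38% of the 50-mers of Grb2, so some of its reads may have been divided between copies. Blnk, the central scaffold of the pathway (chromosome 19, 40928927 to 40994535), had the highest input level of the 10. It measured 210 and 246 FPKM in the tet-LIN28B IPs against 193 and 198 FPKM in their inputs, and 206 FPKM in the control IP against 235 FPKM in the control input. The ratio was 1.16 ± 0.108 in tet-LIN28B mice (SD, n = 2) and 0.876 in the control.

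The tyrosine kinases were near or below their input level in tet-LIN28B mice. Their ratios were lower than in the control in FPKM as deposited, a direction that for Lyn and Btk turned with the scaling. Syk, the kinase recruited to phosphorylated CD79 (chromosome 13, 52583173 to 52648792), measured 37.9 and 58.9 FPKM in the tet-LIN28B IPs against 43.1 and 42.5 FPKM in their inputs. In the control it was at 83.9 FPKM in the IP against 50.2 FPKM in the input, so that the ratios of 0.880 and 1.39 in tet-LIN28B mice lay on either side of 1 and both below the control's 1.67. Blk, a Src family kinase of B cells (chromosome 14, 63372836 to 63417037), had the widest spread of the 10 between both tet-LIN28B mice on the log2 scale (SD of the log2 ratio 0.60, n = 2), with 39.0 and 71.5 FPKM in the IPs against 74.1 and 74.9 FPKM in the inputs. Its ratios were 0.527 and 0.955, and 1.24 in the control (98.7 FPKM in the IP, 79.7 FPKM in the input).

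Lyn, the Src family kinase that both starts and restrains receptor signalling (chromosome 4, 3678115 to 3813122), measured 38.6 and 51.5 FPKM in the tet-LIN28B IPs and 50.8 and 52.5 FPKM in their inputs. In the control its IP held 62.0 FPKM and its input 58.7 FPKM, and tet-LIN28B ratios of 0.758 and 0.980 stood beside 1.06 for the control. Reads of Lyn are less certain, since 21.8% of its 50-mers occur in the models Gm11787 or Gm26857, and Gm26857 overlaps it in antisense. Btk, the Tec family kinase that activates PLCγ2 (X chromosome, 134542336 to 134583570), varied little among the IPs, at 28.2 and 29.5 FPKM in the tet-LIN28B IPs and 29.0 FPKM in the control IP. Its inputs held 36.1 and 36.4 FPKM in tet-LIN28B mice and 33.2 FPKM in the control. The ratio of Btk was 0.795 ± 0.0211 in tet-LIN28B mice (SD, n = 2) and 0.873 in the control.

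Of the lipid enzymes, Pik3cd, the catalytic subunit of PI3Kδ (chromosome 4, 149649168 to 149702571), measured 61.0 and 68.9 FPKM in the tet-LIN28B IPs and 77.5 and 71.1 FPKM in their inputs. The control had more in the IP, with 93.9 FPKM, than in the input, with 65.5 FPKM. The ratio was 0.878 ± 0.128 in tet-LIN28B mice (SD, n = 2) and 1.43 in the control. Plcg2, the phospholipase that releases calcium (chromosome 8, 117498291 to 117635142), was the least abundant and the most depleted. It measured 5.19 and 8.02 FPKM in the tet-LIN28B IPs and 15.7 and 17.9 FPKM in their inputs, against 18.5 FPKM in the IP and 18.8 FPKM in the input of the control. Its ratio was 0.389 ± 0.0831 in tet-LIN28B mice (SD, n = 2) and 0.986 in the control.

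**Figure D2:**
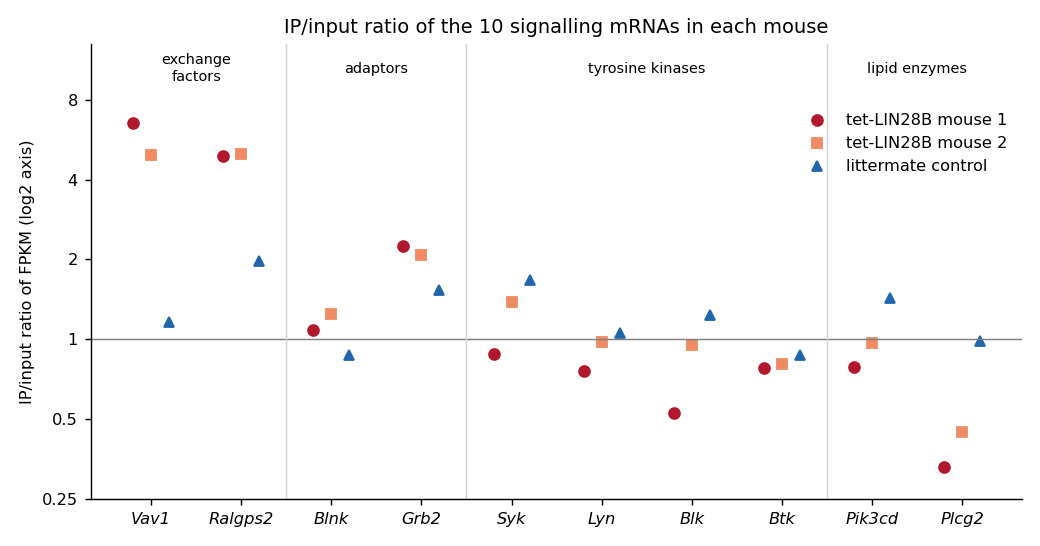
IP/input ratio of FPKM (log2 axis) of the 10 transcripts in both tet-LIN28B mice and the littermate control, grouped by role, with a line at 1. Vav1 and Ralgps2 lie between 4.93 and 6.57 in tet-LIN28B mice, above the other 8, whereas in the control Vav1 (1.16) lies among the others, which run from 0.873 to 1.67.

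Set against the other 8 members within each mouse, Vav1 and Ralgps2 lay above the median in both tet-LIN28B mice, by a wider margin in the first. The other 8 had a median ratio of 0.784 in the first tet-LIN28B mouse (range 0.331 to 2.25), and Vav1 stood 8.38 times and Ralgps2 6.29 times above it. In the other tet-LIN28B mouse the median was 0.975 (range 0.448 to 2.07), and the margins were 5.10 and 5.14 times. In the control, with a median of 1.15, they were 1.01 and 1.71 times. The order in tet-LIN28B mice, by the average ratio, was Vav1, Ralgps2, Grb2, Blnk, Syk, Pik3cd, Lyn, Btk, Blk and Plcg2. Vav1 and Ralgps2 differed by less than the SD of Vav1, as did the neighbours from Blnk to Blk by less than the larger of their SDs, while Grb2 and Plcg2 stood apart from their neighbours by more than both SDs.

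These ratios have to be read against the other transcripts, because the IPs differed as a whole. Over the same 6347 genes, the median log2 ratio was -0.41 and -0.28 for tet-LIN28B, mouse by mouse, and -0.02 for the control. Vav1 exceeded 99.8% and 99.45% of these genes in the tet-LIN28B mice, and Ralgps2 99.43% and 99.48%. Grb2 exceeded 92.5% and 91.5%, Plcg2 24.0% and 25.6%, and Btk, with 51.9% and 49.4%, was in the middle. In the control, Syk exceeded 92.3% and Pik3cd 85.7%, both more than in either tet-LIN28B mouse.

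**Figure D3:**
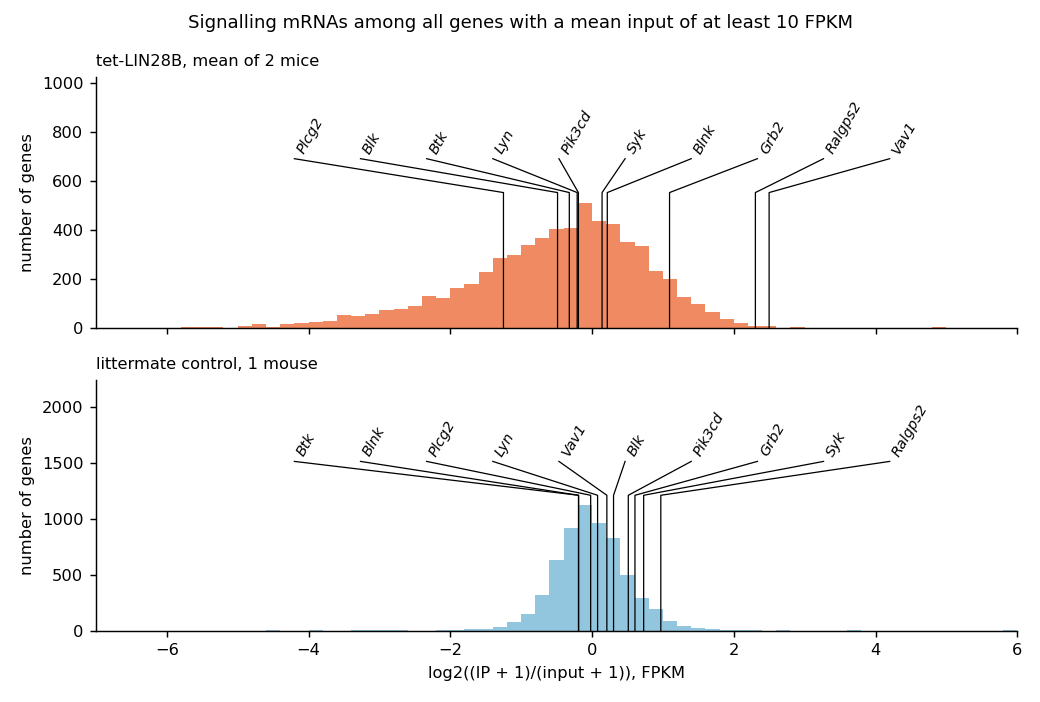
Histograms of log2((IP + 1)/(input + 1)) over the 6347 genes tested, for the mean of 2 tet-LIN28B mice and for the control, with the 10 transcripts marked and values beyond the axis drawn in the end bins. The tet-LIN28B values spread more widely than the control's, and Vav1 and Ralgps2 lie in the upper tail of the tet-LIN28B values.

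By limma at an adjusted p under 0.05, 3 members were higher and 1 lower in the tet-LIN28B IPs than in the inputs, beside 20.2% of all 6347 genes higher and 41.9% lower. With each mouse centred on its own median, these were 4 and 1 members, beside 32.2% and 33.6% of all genes. Relative to the control, 2 members were higher and 0 lower, beside 4.73% of all genes higher and 17.8% lower, and 3 members had an unadjusted p under 0.05. After centring, the same numbers of members were called beside 10.4% and 14.6% of all genes. Since the members were chosen with these ratios known, nothing is read from these counts. Both tet-LIN28B ratios lay above the control ratio for 4 members (Vav1, Ralgps2, Blnk and Grb2) and below it for the 6 kinases and lipid enzymes, beside 27.8% and 59.6% of all genes. After centring it was 5 members above and 4 below, beside 41% and 46%. In the control alone, 0 members had a ratio above 2, beside 4.02% of all genes. The centred log2 differences were 2.61 for Vav1, 1.65 for Ralgps2, 0.81 for Grb2 and 0.73 for Blnk. Those of Blk, Pik3cd and Syk were then -0.47, -0.38 and -0.27, while Btk (0.19) and Lyn (0.03) turned positive, so their direction relative to the control depends on the scaling. Plcg2 stayed lower, at -0.91 after centring and -1.23 before.

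The levels of these transcripts in the inputs, a comparison that did not enter their choice, did not differ detectably between the genotypes. Vav1 averaged 72.6 ± 3.05 FPKM in tet-LIN28B inputs (SD, n = 2) and was at 64.7 FPKM in the control input. Ralgps2 averaged 130 ± 9.71 FPKM (SD, n = 2), against 153 FPKM in the control. The log2 differences ran from -0.27 for Blnk to 0.22 for Grb2 with standard errors of 0.13 to 0.17, and 0 of the 10 members passed (limma, lowest adjusted p = 0.802; 0 at an unadjusted p under 0.05). Of all 6347 genes 13 were higher (0.205%) and 5 lower (0.0788%), and with 1 control mouse a small difference in level could have been missed. In such bulk lysates, fewer cells of a type and less RNA per cell cannot be told apart.

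Length was shared unevenly with the ratio. The mRNA models of the members ran from 2097 bases (Blnk) to 5363 bases (Syk), around or above the median of 2297 bases of all genes with a coding model. Over these genes, the log2 ratio in tet-LIN28B mice had Pearson r = 0.358 with log2 length and Spearman rho = 0.341 with length, as a description across genes. Vav1 (2963 bases) and Ralgps2 (3346 bases) had lengths between those of Btk (2540 bases) and Lyn (3463 bases), whose ratios were below 1. Grb2 (2709 bases), with a ratio of 2.16, lay between Btk and Lyn in length as well. Whether length bears on the ratios of the members was not tested. For 8 of the 10, no 50-mer occurred in a transcript of another gene, Vav1 and Ralgps2 included.

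**Figure D4:**
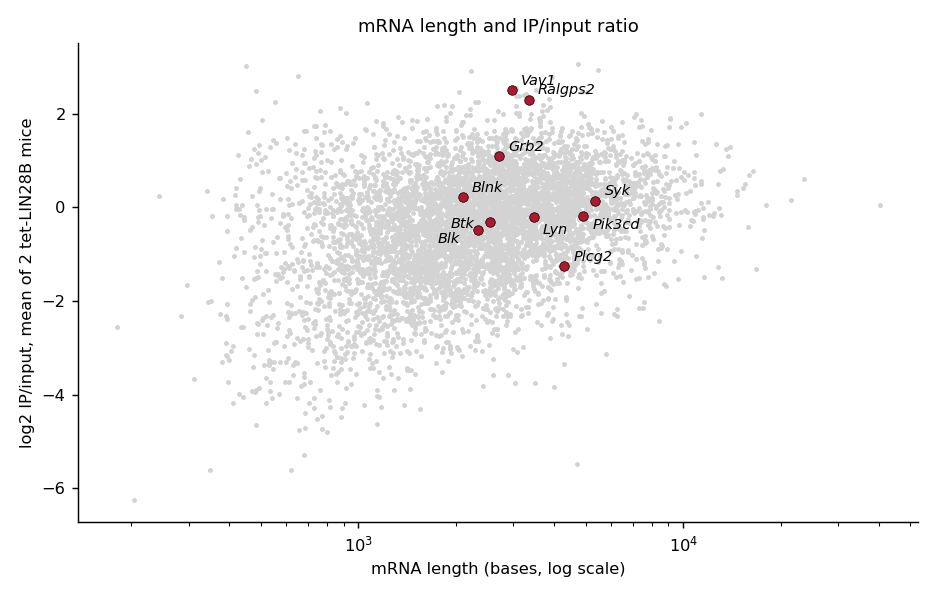
mRNA length (bases, log axis) against the mean log2 IP/input ratio of 2 tet-LIN28B mice, for the genes tested that have a coding model (grey) and the 10 transcripts (red). Vav1 and Ralgps2 lie at the upper edge of the genes of similar length, and Plcg2, at 4298 bases, in the lower part.

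The relatives of the exchange factors were not high in the IP. Vav2 and Vav3, the paralogs of Vav1, had ratios of 0.965 ± 0.114 and 0.954 ± 0.0574 in tet-LIN28B mice (SD, n = 2) and of 1.61 and 0.934 in the control. Ralgps1, the paralog of Ralgps2, was at 0.614 ± 0.186 (SD, n = 2) and 1.11. Their inputs held at most 5.36, 5.22 and 1.43 FPKM, so these values rest on far fewer fragments. Over the 6 libraries, the genes whose centred log2 FPKM lay nearest to Vav1 were Rpl36a, a ribosomal protein gene, Hsp90aa1, a chaperone gene, and Cops9, a COP9 signalosome subunit gene (root mean square distances of 0.124, 0.154 and 0.181 on the log2 scale). Those nearest to Ralgps2 were Rpia, which encodes an enzyme of the pentose phosphate pathway, Wnk1, a kinase gene, and Keap1, a sensor of oxidative stress (0.139, 0.181 and 0.218). In the control, these 3 had ratios of 1.85, 2.09 and 1.98, near the 1.97 of Ralgps2. The distance included the control libraries, so this likeness follows from how the 3 were picked.

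Among 125 other genes of antigen receptor signalling, 76 reached the same input level. Between IP and input of tet-LIN28B mice, limma called 12 of the 76 higher and 29 lower, beside 20.2% and 41.9% of all genes, with a median log2 ratio of -0.26 against -0.35 for all genes tested. With each mouse centred on its median these were 22 and 26, beside 32.2% and 33.6% of all genes. Relative to the control 1 was higher and 11 were lower, beside 4.73% and 17.8% of all genes, with a median log2 difference of -0.47 against -0.39. These calls depended on the processing, with 4 higher and 8 lower after centring, beside 10.4% and 14.6% of all genes. Without the replicate block, which pairs IP and input of a mouse, they were 0 and 2, beside 45 and 272 of all 6347 genes. The 1 higher gene was Ikbkb, the IκB kinase that activates NF-κB, whose ratio was 2.79 ± 0.00353 in tet-LIN28B mice (SD, n = 2) and 1.11 in the littermate. Ppp3ca, the catalytic subunit of calcineurin, and Nras, a RAS GTPase, followed at 2.47 ± 0.240 and 2.26 ± 0.289 (SD, n = 2), but had 1.62 and 2.19 in the control as well.

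The lowest was Rac2, a GTPase of blood cells that VAV1 loads. It measured 8.19 and 21.1 FPKM in the tet-LIN28B IPs and 173 and 212 FPKM in their inputs, against 225 FPKM in the IP and 240 FPKM in the input of the control. The ratio of Rac2 was 0.0736 ± 0.0370 in tet-LIN28B mice (SD, n = 2) and 0.937 in the control. Vav1 was chosen for a high ratio and Rac2 named for a low one, so nothing is read from their contrast. Orai1, the calcium channel of the plasma membrane, and Fcgr2b, the inhibitory Fc receptor, were at 0.132 ± 0.0280 and 0.152 ± 0.0356 (SD, n = 2), against 0.909 and 0.952 in the control. Orai1 no longer passed the test against the control after centring, and Orai1, Rac2 and Ikbkb did not without the replicate block. The other 8 that were lower than in the control, named after their values were seen, were Rac1, Arhgdib, Prkcd, Map2k2, Ptpn11, Cd22, Lck and Sh3kbp1. By role, the calls relative to the control stand beside 17.8% of all genes lower and 4.73% higher. They were 3 lower of 17 exchange factors and small GTPases, 3 of 13 inhibitors and phosphatases, and 2 of 10 in calcium, PKC and NFAT signalling. Lower as well were 1 each of 5 tyrosine kinases, 11 adaptors and 7 MAP kinases, and 0 of 6 in PI3K and AKT signalling. Of 7 genes of NF-κB signalling 1 was higher and 0 lower.

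**Figure D5:**
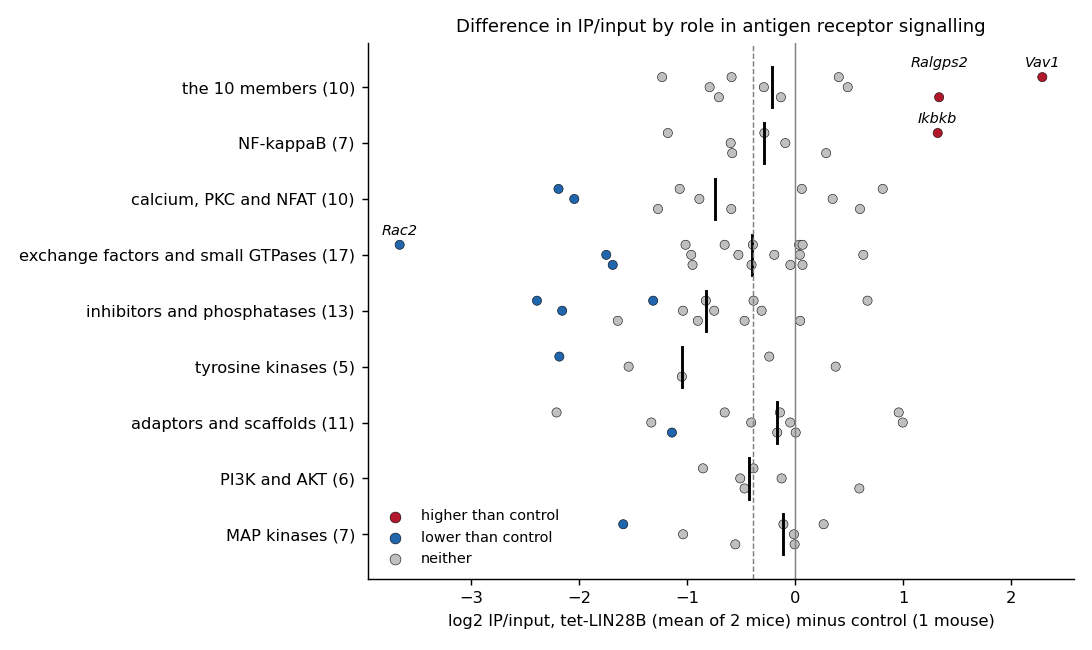
Difference of the log2 IP/input ratio between tet-LIN28B (mean of 2 mice) and the control (1 mouse) for the 10 members and 76 other signalling genes by role (number in brackets), coloured by the limma call, with the median of each role as a bar and that of all 6347 genes as a dashed line at -0.39. The other genes lie on both sides of the dashed line in each role, with Vav1 at 2.29 and Rac2 at -3.66 as the extremes.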

How the data were processed

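Input and anti-FLAG IP libraries of 2 tet-LIN28B mice and 1 littermate control were analysed. The deposited FPKM were made by the authors with STAR 2.7.1 (genome mm10) and RSEM 1.28; which annotation release they used is not given in these sources. No counts come with FPKM, so depth was estimated from genes with 1 transcript of 400 to 900 bases. The depth and length offset chosen for each library were those that brought these genes nearest to whole numbers of fragments. With them, 83.2% to 88.0% of values fell within 0.1 of a whole number (20% for evenly spread values). Because both were fitted to this closeness, the shares are no independent check of the depth. Sample descriptions name the opposite fraction from the titles, and the titles and column names were followed. No library pair of 15 held identical values. Titles number the mice as biological replicates, and p-values measure only the spread between these samples.

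Genes whose inputs averaged 10 FPKM or more were kept (all 10 members). The study's filter of 50 FPKM in the 4 tet-LIN28B libraries, which 4 members passed, asks for a high IP and was used as an alternative. log2((IP + 1)/(input + 1)) per mouse was fitted with limma 3.58.1 (R 4.3.3; Python 3.11.15), genotype as factor, a trend on mean level, Benjamini-Hochberg adjustment and a threshold of 0.05. With 1 residual degree of freedom, the spread came largely from all genes together and the single control was taken to have the same spread as tet-LIN28B. IP and input of a mouse share a lysate and are paired through the ratio. Across genes, the difference between the tet-LIN28B mice in the inputs had r = 0.120 with that in the IPs. Inputs were tested likewise on log2(FPKM + 1). The fits were tested on simulated data. Alternatives changed the filter, pseudocount, scaling, trend, pairing, average and transcript model, and left out each tet-LIN28B mouse.

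Members and lists were chosen with earlier results of these data known. Named genes are the 10 members, the 3 highest and 3 lowest other signalling genes by ratio, 3 nearest genes each to Vav1 and Ralgps2, and 3 paralogs. Shown windows are the first coding GGAGA of Vav1, Ralgps2 and the 2 lowest members (for Ralgps2 the first of the whole mRNA, decided once its coding sequence was seen to hold none). Positions and sequences are those of GENCODE M21 (GRCm38).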

Additional observations from a re-analysis of the deposited data

Results flagged for a closer look

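Differences in log2 IP/input between tet-LIN28B mice and the control are listed here. Those of Vav1 and Ralgps2, 2.29 and 1.33, restate the ratios for which both were chosen and are a description only. Among the genes nearest to them in profile, the differences were 2.32 for Rpl36a, 2.09 for Hsp90aa1, 2.55 for Cops9 and 1.32 for Rpia. These genes were picked for their likeness, so the values add no support. Of 76 other signalling genes, which limma tested, 1 was higher than in the control and 11 were lower, beside 4.73% and 17.8% of all genes. Ikbkb was at 1.32, Rac2 at -3.66, Orai1 at -2.19 and Fcgr2b at -2.39. No group of samples was large enough to look for single samples far from the others.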

How the results depend on the processing

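Against main counts of 1284 genes higher and 2661 lower in the IP, the study's filter of 50 FPKM in the 4 tet-LIN28B libraries gave 522 and 512 of 1460 genes, 50 FPKM asked of the inputs 526 and 1112, centring on the median 2042 higher, and a value above 0 in 1 input 0 and 0. For the difference from the control (300 higher, 1130 lower), the study's filter gave 324 lower, 50 FPKM in the inputs 686 lower, 1 FPKM in the inputs 48 and 318, a pseudocount of 0.1 194 higher, centring 661 higher, no trend 165 higher, and a value above 0 in 1 input 0 and 0. Without the mouse as a replicate block, it was 45 higher and 272 lower. The balance of higher to lower calls was 661 to 928 after centring and 339 to 324 with the study's filter. For the other signalling genes (1 higher and 11 lower of 76), the study's filter gave 5 lower of 16 tested. With 1 FPKM in the inputs it was 0 and 3 of 120, and with a value above 0 in 1 input 0 and 0 of 125. Of the same 76, 2 were higher with a pseudocount of 5, 18 lower with TPM, 4 higher after centring, and 0 and 2 without the replicate block. Of all 6347 genes, 367 were higher with a pseudocount of 5 and 1446 lower with TPM. Between inputs (13 higher, 5 lower), 1 FPKM gave 0 and 0, a pseudocount of 0.1 gave 0 lower and no trend 8 lower. The cause of these shifts was not tested, except that the stricter filters test fewer genes.

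Against the control, Orai1 was no longer called after centring (-1.87), with 1 FPKM in the inputs or without the replicate block, Ikbkb with 1 FPKM in the inputs or without the block, and Rac2 without the block. With a value above 0 in 1 input, neither these 3 nor Fcgr2b were called. Among the members, Ralgps2 was no longer called with 1 FPKM in the inputs, without the block or with a value above 0 in 1 input. Vav1 was not called with a value above 0 in 1 input, and Pik3cd (-0.70) was called lower only with the study's filter. Relative to the control, Lyn (0.03) and Btk (0.19) reversed after centring, and Nras (0.04) reversed with TPM (-0.13) and without the first tet-LIN28B mouse (-0.09, against 0.17 without the other). With either tet-LIN28B mouse left out no residual degree of freedom remained, so no counts are given, and the ratio of Vav1 was 4.97 to 6.57. Depth did not limit the members, but 2 tet-LIN28B mice and 1 control were measured.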

Other observations

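Calcineurin, the calcium-activated phosphatase of NFAT signalling, had 3 subunit transcripts that were above their input level in every mouse. Ppp3ca, chosen by rule, and Ppp3cb and Ppp3r1, chosen after their values were seen, had IP/input ratios of 2.64, 2.01 and 1.77 in the first tet-LIN28B mouse and of 2.30, 1.89 and 2.20 in the other. In the control they were 1.62, 1.53 and 1.11. With FPKM as deposited, none of the 3 passed the limma test of the difference from the control. After centring, their log2 differences were 0.92, 0.67 and 1.13. In that fit, 1 of the 10 genes tested in calcium, PKC and NFAT signalling was called higher than in the control.

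Nck1, an adaptor chosen after its values were seen, had 69.8 and 72.4 FPKM in the tet-LIN28B IPs against 38.4 and 36.03 FPKM in their inputs. In the control it had 36.8 FPKM in the IP and 38.0 FPKM in the input. With FPKM as deposited, Nck1 did not pass the limma test of the difference from the control (log2 difference 0.96). Its relative Nck2 held 1.90 and 2.23 FPKM in the tet-LIN28B IPs against 1.95 and 2.18 FPKM in their inputs, with 3.67 FPKM in the IP and 2.30 FPKM in the input of the control.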
